A study of Homo sapiens with 12 samples.

Results

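The 10 genes examined here restrain TGF-beta and BMP signalling or answer it as immediate targets, and they were followed after transcription was blocked in A673 cells. They were the 4 inhibitor of DNA binding genes (ID1, ID2, ID3 and ID4), the inhibitory SMAD genes SMAD6 and SMAD7, the repressor genes SKI, SKIL and TGIF1, and BAMBI. They were chosen by symbol, with earlier results of these data known, and all 10 were found among the 26334 genes listed in the table of read counts. A673 is an established Ewing sarcoma cell line, and the samples carry the line name shA673-1c, which the labels do not explain further. The titles of all 12 samples also carry the tag CTL, which is not explained either. Cells kept in blasticidin and zeocin received 5 µM actinomycin D, which binds DNA and blocks RNA polymerases, and polyadenylated RNA was sequenced after 0, 1, 2 and 4 h. Each time point had 3 biological replicates, giving 12 libraries, and the 0 h libraries of the same line served as the starting level. The design has no arm that was kept in culture without the drug.

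BMP and TGF-beta ligands bring together type I and type II receptor kinases, which phosphorylate SMAD proteins that then enter the nucleus with SMAD4 and regulate transcription. The ID genes are direct targets of the BMP branch. Their products are helix-loop-helix proteins with no DNA-binding region, and they hold E proteins in dimers that cannot bind DNA. SMAD6, SMAD7 and BAMBI are induced by the same pathway and act back on its receptors, whereas SKI, SKIL (also called SnoN) and TGIF1 hold SMAD complexes in a repressed state in the nucleus. ID2 is a gene long associated with the EWSR1-FLI1 fusion of Ewing sarcoma cells. Messenger RNAs of such early-response genes often carry AU-rich elements, built from the pentamer ATTTA, in the 3′ untranslated region (3′UTR).

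Library totals ranged from 9147018 to 11194705 counts. The chi-square per degree of freedom between replicate libraries was 3.20 to 8.65, above sampling noise for every pair. Levels are given as CPM, a gene's counts relative to the library total, scaled by trimmed mean of M-values (TMM), and a slope is the log2 change per hour over the 4 time points. No spike-in was added, so a slope is a change relative to the other transcripts, and the median slope of the 12032 genes tested was 0.0093. A half-life, which is -1 divided by the slope, is relative in the same way. Loss of RNA and any transcription that went on in the drug add up in a slope and cannot be told apart. Less RNA per cell and fewer cells holding a transcript cannot be told apart in such bulk libraries. The immediate early genes JUN and IER2 had 11% and 12.5% of their 0 h level left at 4 h. Of 9 Ewing sarcoma markers 8 were tested, with a summed level of 2286 to 2567 CPM by library totals. Most of this sum came from CCND1 and EWSR1, with mean TMM-scaled levels of 1678 and 318 CPM at 0 h. LIPI followed at 128 CPM, NKX2-2 had only 7.08 CPM and PAX7 was lower still. CD99 was listed at 0 in all 12 libraries, and whether the counting could register its reads was not tested. Endothelial markers (PECAM1, VWF, CDH5 and TIE1) together reached at most 0.895 CPM, PTPRC 0.294 CPM, and EPCAM with CDH1 0.756 CPM.

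The 3′UTRs of the 10 genes all held ATTTA, which 75.1% of the 10819 tested genes with an annotated 3′UTR also did. The longer form TATTTAT, which contains the pentamer, was present in 6 of the 10 genes (ID2, ID4, SMAD6, SMAD7, SKIL and SKI) and in 37.6% of the tested genes. In this annotation (GRCh38) ID1 spans chr20:31605283-31606515, ID2 chr2:8678845-8684461, ID3 chr1:23557926-23559501 and ID4 chr6:19837370-19842197. SMAD6 spans chr15:66702236-66782849 and SMAD7 chr18:48919853-48950965. SKIL spans chr3:170357342-170396835, SKI chr1:2227388-2310213, TGIF1 chr18:3411608-3459978 and BAMBI chr10:28677510-28682932. The windows that follow all lie in 3′UTR exons, are 30 bases long and show examples of these elements. They were read from the canonical transcripts of GENCODE release 44 (GRCh38) on the strand of the gene, 5′ to 3′, with U written as T. Each ATTTA is in capitals. For a gene with several elements the window shows a TATTTAT or a pair of pentamers where there is one, and the TGIF1 window was picked for its downstream bases. The counts themselves were made by the authors on hg19, as listed in the labels, so these coordinates do not apply to them.
ID1 (chr20:31606481-31606510, plus strand): tttgttattaaacaaataATTTAgatggtg
ID2 (chr2:8683875-8683904, plus strand): gtgatattcgttATTTAtgaaaaagacttt
ID2 (chr2:8684114-8684143, plus strand): tgctgtgtatatATTTAtatataaatatat
ID3 (chr1:23558048-23558077, minus strand): tctgttgccctgATTTAtgaactctataat
ID4 (chr6:19841007-19841036, plus strand): tcaaattcagatATTTAtatgaatatgaaa
SMAD6 (chr15:66781726-66781755, plus strand): tacaatgtaattATTTAtgtatggtgcaat
SMAD7 (chr18:48920037-48920066, minus strand): ataagcatcattATTTAtgtattgtgcaat
SKIL (chr3:170393961-170393990, plus strand): tccccaaatgtaATTTATTTActaaattga
SKI (chr1:2308136-2308165, plus strand): tacagttacggtATTTATTTAcataagaag
TGIF1 (chr18:3459926-3459955, plus strand): tttatgcttataATTTAcatggtgcaatat
BAMBI (chr10:28682713-28682742, plus strand): ttctacatcttgATTTAttgtaaagATTTA

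The number of pentamers differed widely among the 10 genes. SKIL had 23 in 4418 bases of 3′UTR and SKI 11 in 3448 bases, against 1 each in ID1 (416 bases) and ID3 (515 bases). ID2 had 3 in 784 bases, ID4 6 in 3002 bases, SMAD6 6 in 1314 bases, SMAD7 3 in 1519 bases and TGIF1 6 in 2038 bases. BAMBI held 5 in only 531 bases, or 9.42 per kilobase, a density above that of 98.9% of the tested genes. The other 9 genes had 1.94 (ID3) to 5.21 (SKIL) per kilobase, beside a median of 1.78 over the tested genes. These are letter counts in an annotated transcript. They do not show that an element is used in A673 cells.

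The SMAD6 and SMAD7 windows share a run of 13 bases, attATTTAtgtat, and in both the run is followed within a few bases by GTGCAAT. This heptamer is the complement of the seed of miR-92a-3p, whose mature sequence in RefSeq (GRCh38.p14) is shown here with bases 2 to 8 in capitals.
miR-92a-3p: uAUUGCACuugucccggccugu
The heptamer, searched on the strand of the transcript, occurred in the 3′UTRs of SMAD6, SMAD7, SKIL, SKI and TGIF1, where TGIF1 had 2 copies. It was absent from the 3′UTRs of the 4 ID genes and BAMBI. Of the 10819 tested 3′UTRs, 13.5% held it, a share that is not matched for length. The 5 genes that held it had 3′UTRs of 1314 to 4418 bases. Those without it had 416 to 784 bases, except ID4 with 3002, so presence and length cannot be told apart here. The heptamer lay 6 bases from the nearest ATTTA in SMAD6 and in SMAD7, and 4 bases from it in TGIF1, against 116 in SKIL and 239 in SKI. The heptamer was looked for after these windows had been seen, and microRNAs were not measured here.

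All 10 genes fell after actinomycin D, and none rose. In edgeR's quasi-likelihood test with Benjamini-Hochberg adjustment over the 12032 genes tested, the slope was negative with an adjusted p below 0.05 for 10 of 10, where 32.1% of all tested genes were called in that direction and 30.7% in the other. The 10 were chosen with earlier results of these data known, so this contrast is descriptive. The median slope of the 10 genes was -0.69 per hour. BAMBI was lost fastest, at -1.17 per hour, and only 22 tested genes had a lower slope. SMAD6 was lost slowest, at -0.19 per hour, with 2338 tested genes below it.

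**Figure D1:**
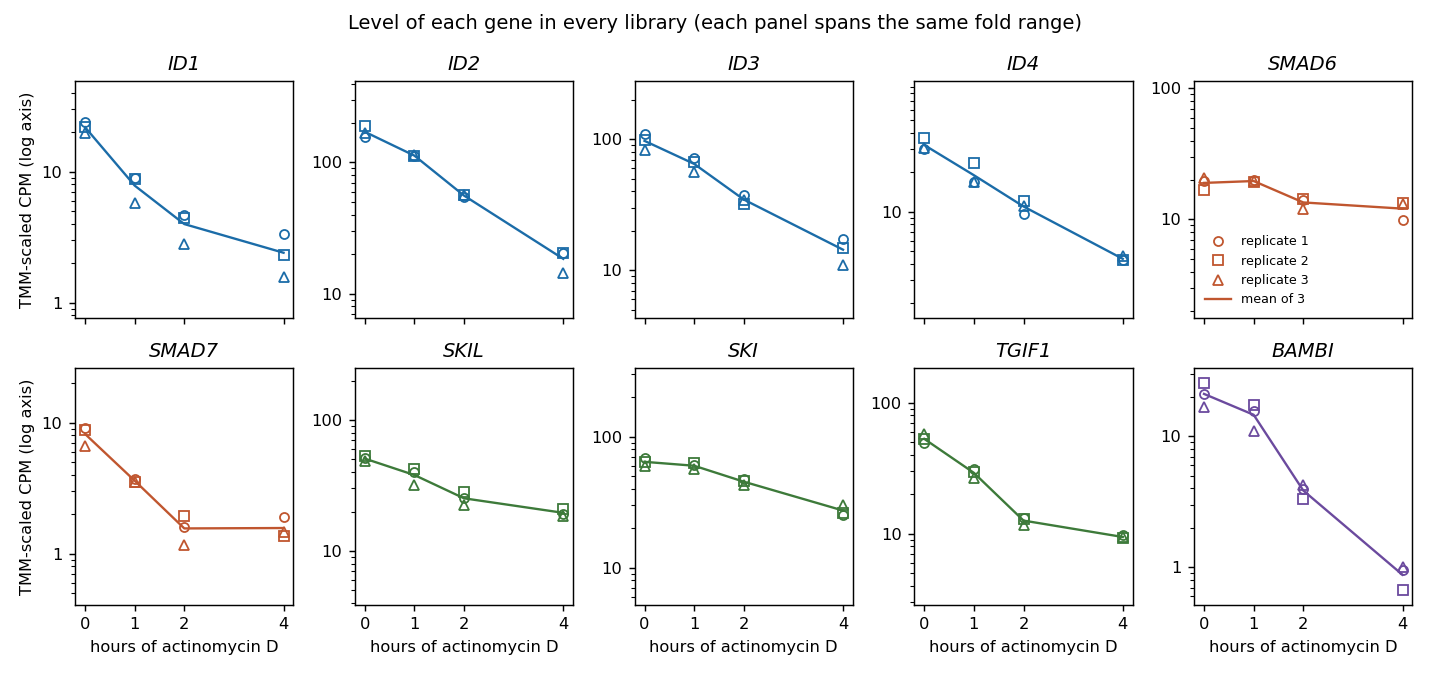
TMM-scaled CPM (log axis) of each gene against hours in actinomycin D, in which a symbol is a library (circle, square and triangle for replicates 1, 2 and 3) and the line joins the means. Each panel spans the same fold range, so BAMBI, which fell to 4.39% of its 0 h level by 4 h, drops farthest and SMAD6, at 64.4%, least.

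ID2 was the most abundant ID transcript by counts. Its level was 157, 190 and 167 CPM at 0 h in replicates 1 to 3, 112, 112 and 115 CPM at 1 h, 54.5, 56.5 and 56.5 CPM at 2 h, and 20.4, 20.4 and 14.3 CPM at 4 h. No libraries of neighbouring time points overlapped, and 10.8% ± 2.19 (SD, n = 3) of the 0 h level was left at 4 h. The slope of ID2 was -0.82 per hour (SE 0.030, adjusted p = 6.2e-11 by edgeR), which corresponds to a half-life of 1.22 h. The log2 change between 2 and 4 h, -1.60 (SE 0.11), came to -0.80 per hour, and the test for a departure from a line was not passed (adjusted p = 0.478). With the replicate numbers as a block, the departure of ID2 did pass (adjusted p = 0.0102).

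ID3 had 110, 99.2 and 82.4 CPM at 0 h and 71.4, 66.7 and 56.6 CPM at 1 h. It reached 37.8, 31.8 and 34.6 CPM at 2 h and 17.4, 14.7 and 11 CPM at 4 h. Replicate 3 was the lowest of its group at 3 of the 4 times, and the time points nevertheless did not overlap. The slope was -0.70 per hour (SE 0.037, adjusted p = 9.2e-10), a half-life of 1.42 h.

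ID4 started from 30.2, 36.3 and 30.5 CPM and fell to 16.9, 23.4 and 16.8 CPM at 1 h, 9.64, 12.2 and 11.1 CPM at 2 h, and 4.27, 4.26 and 4.59 CPM at 4 h. The order of the time points held in every library, with no overlap. Its slope, -0.73 per hour (SE 0.038, adjusted p = 9.2e-10), gave a half-life of 1.37 h. The rate of ID4 hardly varied over the course, with log2 changes per hour of -0.77, -0.79 and -0.66 in the 3 intervals. The antisense gene LNC-LBCS overlaps the 5′ part of ID4 in the annotation.

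ID1 was lost most in the first hour. It had 24, 21.8 and 19.6 CPM at 0 h, and 9.0, 8.74 and 5.72 CPM at 1 h, which was 35.6% ± 5.73 (SD, n = 3) of the start. At 2 h it had 4.67, 4.46 and 2.81 CPM and at 4 h 3.32, 2.32 and 1.57 CPM. The libraries at 2 h and 4 h overlapped, and replicate 3 was the lowest at every time. The log2 change of ID1 at 1 h was -1.48 (SE 0.20, adjusted p = 0.00135), the largest of the 10 genes. Between 2 and 4 h the change was -0.73 (SE 0.29, adjusted p = 0.0768), which passed with the replicate block (adjusted p = 0.00589). The slope over all times was -0.87 per hour (SE 0.088, adjusted p = 3.28e-07).

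The 4 ID genes together fell from 323 ± 24.2 CPM (SD, n = 3) at 0 h to 204 ± 9.24 at 1 h, 106 ± 0.942 at 2 h and 39.5 ± 7.20 at 4 h. The make-up of this pool changed little in comparison. ID2 held 53.1% ± 3.72 of the ID counts at 0 h and 46.5% ± 2.17 at 4 h, and ID3 held 30.1% ± 3.64 and 36.2% ± 1.92. The share of ID1 was 6.77% ± 0.625 at 0 h, 3.80% ± 0.743 at 1 h and 5.95% ± 1.21 at 4 h. ID4 held 10.0% ± 0.541 at 0 h and 11.4% ± 2.79 at 4 h. These shares are not corrected for transcript length and were not tested.

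The inhibitory SMADs, which block receptor signalling from inside the cell, differed widely in their courses. SMAD7 had 9.15, 8.78 and 6.66 CPM at 0 h, 3.74, 3.54 and 3.54 CPM at 1 h, and 1.59, 1.92 and 1.16 CPM at 2 h. At 4 h its level was 1.90, 1.36 and 1.46 CPM, which lay within the range at 2 h. The log2 change of SMAD7 was -1.18 (SE 0.19, adjusted p = 0.00384) in the first hour and -1.21 (SE 0.23, adjusted p = 0.00273) in the second. Between 2 and 4 h it was 0.0024 (SE 0.28), from only 12 to 19 counts per library at 2 h and 13 to 16 at 4 h. The slope over all times was -0.68 per hour (SE 0.094, adjusted p = 1.04e-05).

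SMAD6 had 19.7, 16.8 and 20.6 CPM at 0 h and 20.1, 19.2 and 19.6 CPM at 1 h. The 1 h libraries lay within the range of the 0 h libraries, and the log2 change was 0.047 (SE 0.12, adjusted p = 0.942). SMAD6 then had 14, 14.4 and 12.1 CPM at 2 h, below every earlier library, and 9.83, 13.4 and 13.1 CPM at 4 h, which overlapped with 2 h. The change from 1 to 2 h was -0.54 (SE 0.13, adjusted p = 0.00887), and that from 2 to 4 h was -0.15 (SE 0.13, adjusted p = 0.425). Without any 1 of the 3 replicates the change from 1 to 2 h missed the threshold (adjusted p = 0.059, 0.0698 and 0.065 without replicates 1, 2 and 3). The slope, -0.19 per hour (SE 0.038, adjusted p = 0.000416), corresponds to a half-life of 5.36 h, against 1.48 h for SMAD7. No fall was called for SMAD6 in the first hour or for SMAD7 from 2 to 4 h. These half-lives therefore only restate the slopes and do not describe an even loss. The difference between the SMAD6 and SMAD7 slopes was not tested, and the slopes of single replicates, between -0.27 and -0.11 for SMAD6 and between -0.62 and -0.53 for SMAD7, did not overlap.

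BAMBI, a receptor-like protein without a kinase domain that takes the place of a type I receptor, fell farthest. Its level was 21.0, 25.4 and 16.8 CPM at 0 h, 15.6, 17.3 and 10.9 CPM at 1 h, 3.97, 3.34 and 4.26 CPM at 2 h, and 0.948, 0.678 and 1.01 CPM at 4 h. The 0 h and 1 h libraries overlapped, whereas every later time point lay below every earlier one. The log2 change of BAMBI was -0.53 (SE 0.18, adjusted p = 0.146) in the first hour, which passed with the replicate block (adjusted p = 0.000463), and -1.91 (SE 0.21, adjusted p = 3.21e-05) in the second. From 2 to 4 h it was -2.14 (SE 0.34, adjusted p = 0.000379), and 7 to 9 counts per library remained. The slope of -1.17 per hour (SE 0.088, adjusted p = 1.42e-08) gave a half-life of 0.852 h. In single replicates the slope of BAMBI was -1.14, -1.33 and -1.01, each below the lowest single-replicate slope of any of the other 9 genes, -0.91 for ID2.

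The nuclear repressors divided into a fast and a slower group. TGIF1, a homeodomain protein that recruits corepressors to SMAD complexes, had 48.9, 52.6 and 57.3 CPM at 0 h, 31.0, 29.7 and 26.7 CPM at 1 h, 13.2, 13.0 and 11.6 CPM at 2 h, and 9.72, 9.20 and 9.41 CPM at 4 h. No time points overlapped, and the spread within a time point narrowed to 9.44 ± 0.261 CPM (SD, n = 3) at 4 h. The log2 change of TGIF1 was -0.86 (SE 0.087, adjusted p = 0.00022) in the first hour, -1.21 (SE 0.097, adjusted p = 3.18e-06) in the second and -0.42 (SE 0.11, adjusted p = 0.0115) from 2 to 4 h. The last of these calls was lost without replicate 1 (adjusted p = 0.069) or replicate 2 (adjusted p = 0.148). Its slope over all times was -0.66 per hour (SE 0.059, adjusted p = 8.42e-08).

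SKIL and SKI, which encode related proteins that bind SMAD2, SMAD3 and SMAD4, were lost more slowly. SKIL had 51.3, 52.7 and 48.2 CPM at 0 h, 39.8, 42.2 and 32.0 CPM at 1 h, 25.3, 28.2 and 22.3 CPM at 2 h, and 19.3, 21.0 and 18.4 CPM at 4 h. SKI had 68.3, 64.2 and 60.2 CPM at 0 h, 61.3, 62.6 and 56.2 CPM at 1 h, 47.6, 46.0 and 42.5 CPM at 2 h, and 25.5, 26.3 and 30.1 CPM at 4 h. The time points of SKIL did not overlap, while those of SKI overlapped between 0 h and 1 h. Their slopes were close, -0.35 (SE 0.034, adjusted p = 1.88e-07) for SKIL and -0.32 (SE 0.025, adjusted p = 2.31e-08) for SKI, with half-lives of 2.84 and 3.12 h. The single-replicate slopes of SKIL and SKI overlapped. In the first hour the log2 change was -0.42 for SKIL (SE 0.11, adjusted p = 0.0539, and 1.28e-05 with the replicate block) and -0.099 for SKI (SE 0.078, adjusted p = 0.67). From 2 to 4 h it was -0.36 for SKIL (SE 0.12, adjusted p = 0.0316) and -0.73 for SKI (SE 0.086, adjusted p = 3.24e-05). The SKIL call from 2 to 4 h was lost without replicate 1 (adjusted p = 0.193) or replicate 2 (adjusted p = 0.144).

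**Figure D2:**
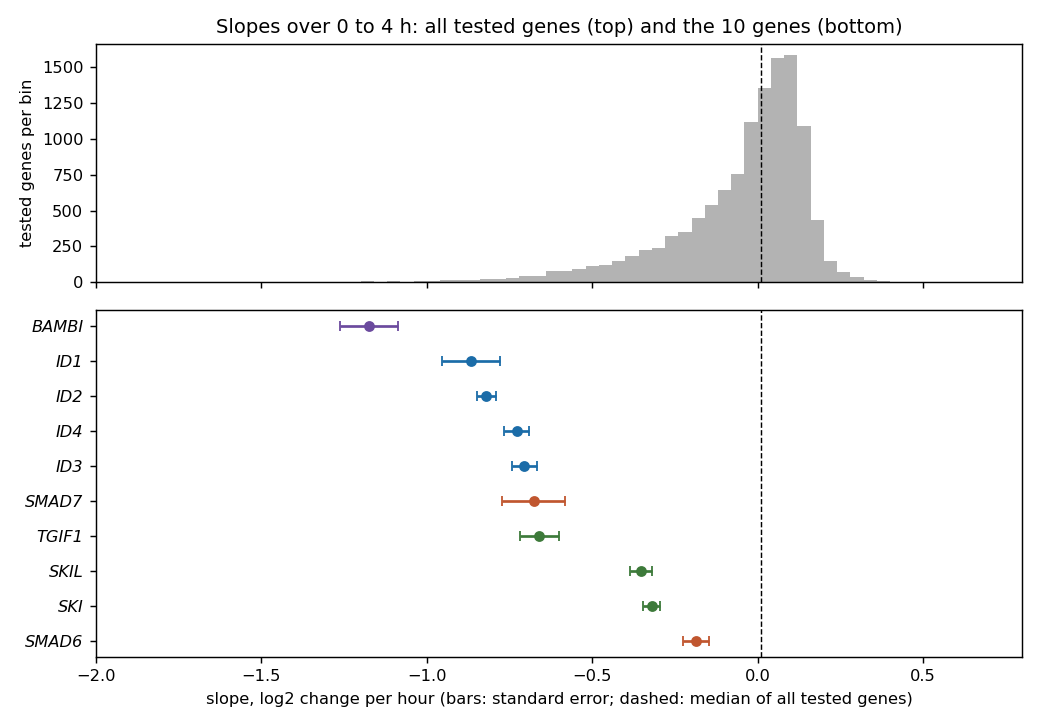
Slope over 0 to 4 h in log2 change per hour, as a histogram of all 12032 tested genes (top) and for each of the 10 genes (bottom, point with its standard error). All 10 genes lie left of the dashed median of all tested genes, 0.0093, from BAMBI at -1.17 to SMAD6 at -0.19.

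In order of slope the 10 genes ran BAMBI, ID1, ID2, ID4, ID3, SMAD7, TGIF1, SKIL, SKI and SMAD6. Only some neighbours were separated by the replicates. The single-replicate slopes of the 4 ID genes, from -0.91 to -0.66, overlapped with one another for each neighbouring pair. Those of SMAD7 and TGIF1 also overlapped, while BAMBI and ID1 were separate, as were ID3 and SMAD7. TGIF1, whose slopes of single replicates were -0.59 to -0.64, did not overlap with SKIL, at -0.34 to -0.36. SKI and SMAD6 overlapped, since SKI had a slope of -0.26 in replicate 3 and SMAD6 a slope of -0.27 in replicate 1. The mean of the single-replicate slopes, in which a prior count of 1 was used, was -0.76 ± 0.087 for ID1 and -0.56 ± 0.053 for SMAD7 (SD, n = 3), shallower than the fitted slopes, whereas that of BAMBI was -1.16 ± 0.162.

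The timing of the loss was then compared across intervals. At 1 h against 0 h, 6 of the 10 genes (ID1, ID2, ID3, ID4, SMAD7 and TGIF1) were lower, beside 2.24% of all tested genes, and 0 were higher, beside 0.349%. With the replicate block the count was 8, with SKIL and BAMBI added, beside 10.5%. The early calls were mostly lost with fewer libraries: 1 of the 10 genes was called without replicate 1, 0 without replicate 2 and 5 without replicate 3, while the calls over all tested genes fell from 269 to 31, 1 and 157. The log2 changes themselves moved little, that of ID1 staying between -1.60 and -1.36 under the 10 alternatives. In 7 of the 10 genes every 1 h library lay below every 0 h library, which was so for 12.7% of the tested genes.

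At 2 h against 1 h all 10 genes were lower, beside 12.5% of the tested genes, and 0 were higher, beside 3.76%. Of these 10 calls, 6 were kept without replicate 1 and 6 without replicate 2. In all 10 the 2 h libraries lay below the 1 h libraries (19.9% of the tested genes). At 4 h against 2 h 7 of the 10 genes were lower, beside 18.3% of the tested genes, and 0 were higher, beside 12%. The count was 5 without replicate 1 and 5 without replicate 2, and 8 with the replicate block (with ID1 added), beside 25.3%. ID1, SMAD6 and SMAD7 were the exceptions, and they were also the 3 genes whose 2 h and 4 h libraries overlapped (no overlap in 22.7% of the tested genes). Against 0 h, all 10 were lower at 2 h (19.4% of the tested genes, with 10.8% higher) and at 4 h (31.6%, with 28.7% higher), in comparisons that share the 0 h libraries. Every 4 h library lay below every 0 h library for all 10 genes, as for 33.0% of the tested genes. The median log2 change of the 10 genes against 0 h was -0.59 at 1 h, -1.59 at 2 h and -2.62 at 4 h, where the medians of all tested genes were -0.022, 0.014 and 0.028.

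**Figure D3:**
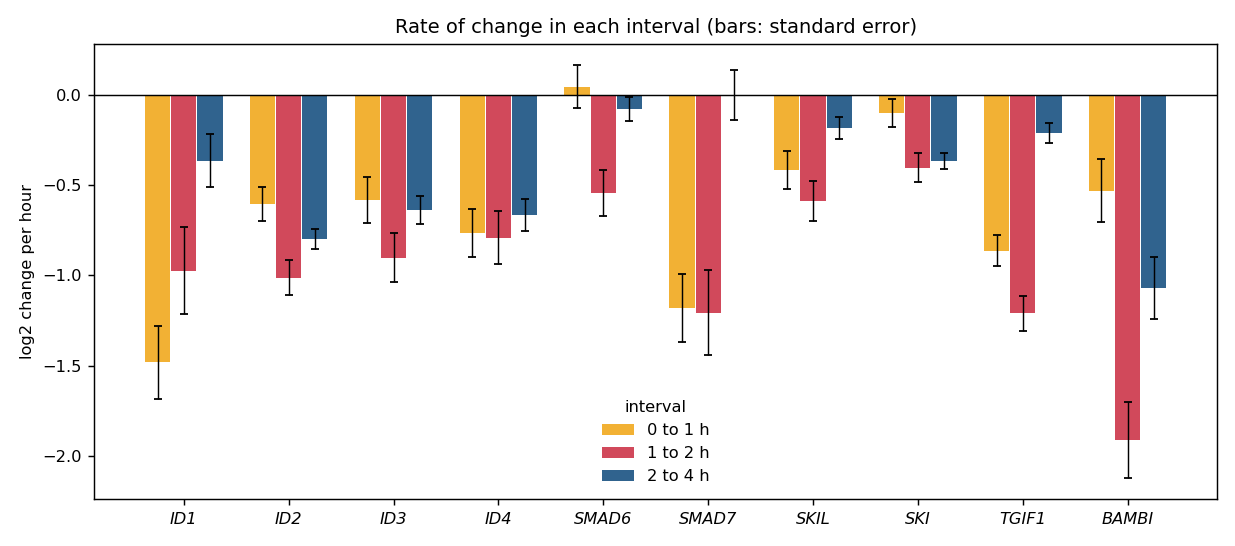
Log2 change per hour of each gene between 0 and 1 h, 1 and 2 h, and 2 and 4 h, with standard errors. Every gene loses less per hour from 2 to 4 h than from 1 to 2 h, SMAD7 by the most (-1.21 to 0.0012) and SKI by the least (-0.40 to -0.37). These 2 intervals were not tested against each other. BAMBI loses less in its first hour (-0.53) than per hour in the later intervals (-1.91 and -1.07).

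TGIF1 and SMAD7 departed from a straight line on the log2 scale (adjusted p = 0.000855 and 0.018), as did 2.7% of the tested genes. With the replicate block 8 of the 10 genes departed, all except ID3 (adjusted p = 0.0884) and ID4 (adjusted p = 0.759), beside 17.2% of the tested genes. The SMAD7 call was lost without any 1 of the replicates (adjusted p = 0.373, 0.309 and 0.068), and the TGIF1 call without replicate 1 (0.0533) or replicate 2 (0.141). A half-life from a single slope is therefore a rougher summary for these genes than for ID3 and ID4. A test of the rate from 2 to 4 h against the rate in the first hour was added after the courses had been seen. ID1, SMAD7 and TGIF1 were lost faster in the first hour, beside 0.814% of the tested genes, with differences of 1.12 (SE 0.25, adjusted p = 0.046), 1.18 (SE 0.23, adjusted p = 0.025) and 0.65 (SE 0.10, adjusted p = 0.00739) log2 units per hour. None of the 10 was called slower in the first hour (0.598% of the tested genes). With the block, SKIL was added to the faster ones (adjusted p = 0.0374, beside 5.67%), and SKI was called slower in the first hour (adjusted p = 0.0113, beside 6.6%). Without replicate 1 or replicate 2, the ID1 difference (adjusted p = 0.346 and 0.545), the SMAD7 difference (0.372 and 0.4) and the TGIF1 difference (0.11 and 0.293) were not called. Without replicate 3, SMAD7 (0.0569) and TGIF1 (0.0749) missed the threshold as well.

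Levels of different genes were compared per kilobase of the canonical transcript. At 0 h ID2 was at 132 ± 13.2 CPM per kilobase (SD, n = 3) and ID3 at 102 ± 14.7, far above the other 8 genes. ID1 followed at 22.2 ± 2.22, TGIF1 at 16.7 ± 1.33, BAMBI at 12.5 ± 2.54 and SKI at 10.6 ± 0.668. ID4 was at 8.34 ± 0.887, SKIL at 7.09 ± 0.318, SMAD6 at 4.97 ± 0.520 and SMAD7 at 2.45 ± 0.401. Of the neighbours in this order, BAMBI and SKI overlapped between libraries and the other pairs did not. By 4 h ID3 and ID2 were at 15.1 ± 3.40 and 14.2 ± 2.69 CPM per kilobase, and the libraries of the pair overlapped. SMAD6, TGIF1, SKIL and ID1, neighbours in the order at 4 h, overlapped too. BAMBI had moved from the fifth place to the ninth, at 0.519 ± 0.104, beside SMAD7 at 0.470 ± 0.0860, and SMAD6 from the ninth to the fourth, at 3.16 ± 0.514. ID2 overlaps the antisense gene ID2-AS1, which had a mean of 8.92 counts per library against 935 for ID2. The strand setting of the count is not given in the sources used here. On the same strand, the long noncoding gene ENSG00000274995 lies within the span of SMAD6 and the pseudogene BOD1P1 within that of TGIF1. Neither is among the genes listed in the counts, and whether they overlap exons was not examined. ID2 and TGIF1 also have processed pseudogenes in the annotation (ID2B and TGIF1P1), and how reads shared with them were counted is not known.

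**Figure D4:**
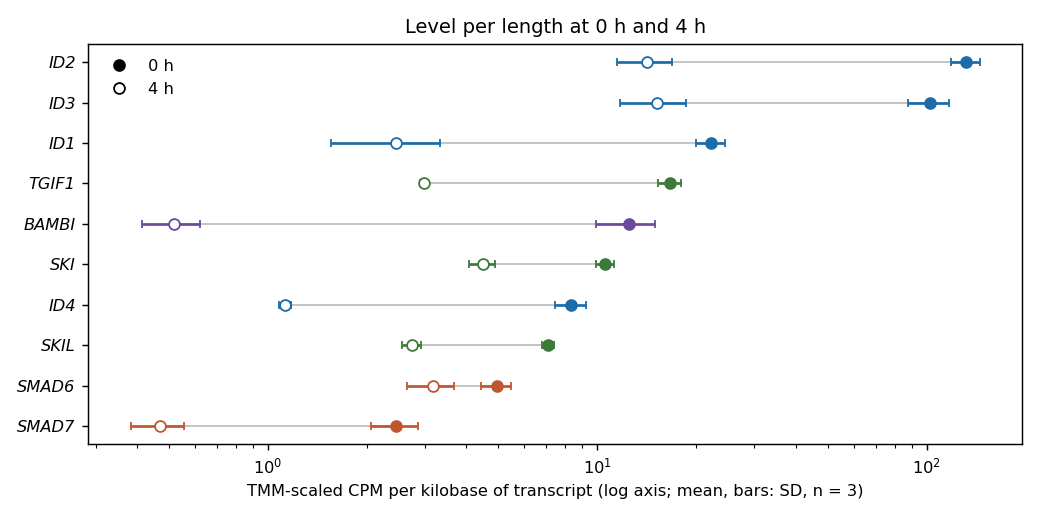
Level per kilobase of transcript (TMM-scaled CPM per kilobase, log axis, mean with SD of 3 libraries) at 0 h and 4 h for each gene. ID2 and ID3 are highest at both times (132 and 102 at 0 h, 14.2 and 15.1 at 4 h), and BAMBI has the longest drop, from 12.5 to 0.519.

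The other genes of the pathway were set beside these 10 in lists by role. Of 94 listed genes 63 were tested, of which 27 fell, 15 rose and 21 were not called, with a median slope of -0.059 per hour. Over all tested genes 32.1% fell and 30.7% rose, which are the shares to set beside the counts of each list below. With the replicate block 31 fell and 18 rose, where 4182 and 4356 of the 12032 tested genes did. No tested gene of the lists had a lower slope than BAMBI, ID1 or ID2. JUNB, a TGF-beta-induced transcription factor, was the only one below ID4, ID3 and SMAD7, at -0.80 per hour (SE 0.097). Of the tested list genes, 11 had a lower slope than SKIL and SKI, and 19 had a lower slope than SMAD6.

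Among the receptors, 4 of 5 tested type I receptors fell and 0 rose, led by ACVR1B at -0.30 and BMPR1A at -0.25 per hour, and BMPR1B was not called. Of 4 tested type II receptors 3 fell, with ACVR2A, an activin receptor, at -0.53 (SE 0.054, half-life 1.89 h) and BMPR2 at -0.018 (adjusted p = 0.403). The BMP co-receptors RGMA and RGMB fell at -0.67 (SE 0.090) and -0.53 (SE 0.057), and the TGF-beta co-receptor ENG rose at 0.11. All 6 receptor-regulated and common SMADs fell. SMAD1, of the BMP branch, was the fastest of them at -0.51 per hour (SE 0.055, half-life 1.96 h), and SMAD2, of the TGF-beta branch, the slowest at -0.087 (SE 0.022). SMAD6 lay within the range of these 6, whereas SMAD7 had a lower slope than each of them, a difference that was not tested.

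Ligands and extracellular antagonists were tested less often because of low counts. Of 9 tested ligands GDF6 fell, at -0.45 (SE 0.027), TGFB1 rose, at 0.16 (SE 0.024), and 7 were not called. With the replicate block TGFB2 also fell (-0.058, adjusted p = 0.0288) and GDF11 also rose (0.053, adjusted p = 0.0197). Of 7 tested genes in the antagonist list 0 fell and 3 rose. FSTL1 rose at 0.14 and TWSG1 at 0.092, and the block added FSTL3 (0.074, adjusted p = 0.0121). LTBP3 rose most, at 0.23 (SE 0.027), but it and LTBP1 of the same list encode latent TGF-beta-binding proteins rather than antagonists. Of the 10 ubiquitin ligases and deubiquitinases that act on SMADs 3 fell, RNF111 at -0.38, SMURF2 at -0.27 and SMURF1 at -0.19, and 3 rose by at most 0.11 per hour. The block added falls of USP9X (-0.041, adjusted p = 0.0159) and USP15 (-0.035, adjusted p = 0.0468).

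The relatives and partners of the 10 genes fell unevenly. TGIF2, the paralog of TGIF1, fell at -0.61 per hour (SE 0.041, half-life 1.63 h), beside -0.66 for TGIF1. SIN3A, a corepressor scaffold, fell at -0.60 (SE 0.044), while NCOR1 and CTBP2 fell at -0.059 and -0.12 and HDAC1 and CTBP1 rose. The E proteins, which ID proteins bind, did not move in the same direction. TCF4 had 65.3% of its 0 h level left at 4 h. TCF4 fell at -0.16 (SE 0.020), TCF3 rose at 0.053 (SE 0.016), and TCF12, at -0.043, was not called (adjusted p = 0.0769) but passed with the replicate block (adjusted p = 0.000867). Among the TGF-beta-induced genes, JUNB, CTGF (-0.58, SE 0.11) and PMEPA1 (-0.36, SE 0.039) fell, whereas COL1A1, LTBP2 and TGFBI rose at 0.13 to 0.18 per hour. CDKN1A, at -0.0019, was not called. The rises depend on the scaling: with each library scaled to GAPDH plus ACTB, which themselves had slopes of 0.15 and 0.12, 46 of the 63 genes fell and 1, LTBP3, rose. The median slope of all tested genes was then -0.13 per hour, with 7729 of the 12032 falling and 112 rising. All 10 genes fell under every scaling tried.

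**Figure D5:**
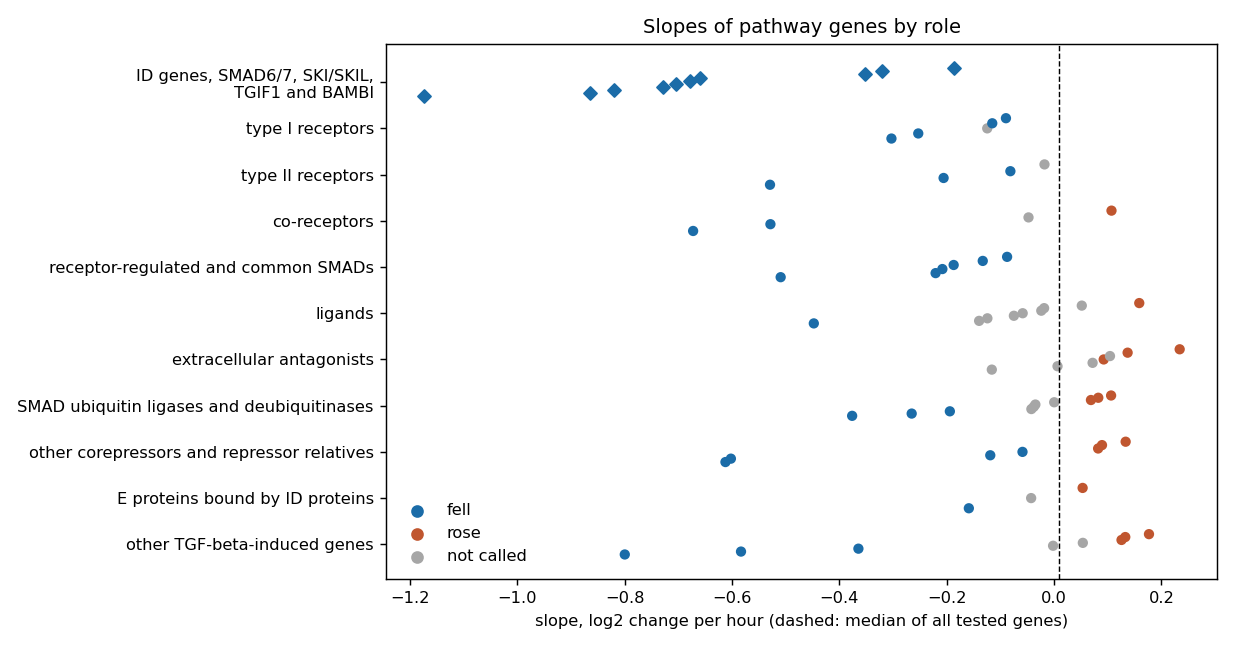
Slope over 0 to 4 h (log2 change per hour) of each tested pathway gene, a point each (offset in height only to keep points apart), by list, with the 10 genes in their own line and a dashed line at the median of all tested genes (0.0093). The E proteins lie between -0.16 and 0.053, and in the other lists only JUNB reaches past -0.70.

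For each of the 10 genes, the tested genes with the most similar course were found by the Euclidean distance of the log2 changes at 1, 2 and 4 h against 0 h. The courses nearest to SMAD7 were those of ZNF92 (distance 0.049), ZNF430 (0.131) and ZNF555 (0.192), and those nearest to TGIF1 were ZBTB6 (0.118), ZNF441 (0.142) and ZNF230 (0.161). BAMBI was nearest to IRF2BPL (0.176), HYLS1 (0.235) and MSC (0.423). ID2 was nearest to BBS12 (0.112), ZIC1 (0.136) and USP27X (0.173), ID3 to BCL10 (0.122), S1PR1 (0.140) and NANP (0.172), and ID4 to BDNF (0.193), FZD8 (0.223) and C8orf48 (0.236). ID1 had no course as near, with ARRDC3 at 0.292 and SNORD2 and MAP10 at 0.403 and 0.488. Among the slower genes, SKI was nearest to HTR7P1 (0.0287), STK17A (0.0367) and ZNF518A (0.0490). SKIL was nearest to MIS12 (0.0514), RNF168 (0.0672) and HAUS3 (0.0748), and SMAD6 to KANSL1L (0.0345), NDST2 (0.0417) and BANP (0.0546). The 10 genes themselves were left out of this search, so whether they were nearest to one another was not examined.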

How the data were processed

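RNA of 12 A673 (shA673-1c) libraries was measured by RNA-Seq after poly(A) selection and stranded library preparation. The authors deposited whole-number read counts per gene symbol. The labels list FastQC, STAR and hg19 for them, and the counter, the annotation and the strand setting are not given in the sources used here. Groups and replicate numbers came from the sample labels, and 0 columns were left unmatched.

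The 12032 genes averaging 10 or more counts over the libraries were fitted in edgeR 4.0.16 (R 4.3.3, glmQLFit and glmQLFTest, TMM factors), with time in hours as a number for slopes or as 4 groups for contrasts. The Benjamini-Hochberg adjustment ran over all tested genes, with a threshold of 0.05. SEs were derived from the F statistic, and a half-life is -1 divided by the slope. Single-replicate slopes were least-squares fits to log2 CPM with a prior count of 1. The common biological coefficient of variation was 0.0858. The scripts were tested on simulated data.

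Replicate numbers in the labels paired the samples. Deviations from the group means correlated at 0.292 to 0.601 in the 18 pairs of same-numbered libraries and at -0.396 to 0.0803 in the other 36. Deviations from a group mean cancel within a time point, so the second range is tied to the first and is not separate evidence. Because same-numbered libraries deviated together, a fit with the number as a block is given beside results of the named genes whose call it changes.

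All 10 genes, the check genes, called pathway genes and the 3 nearest courses were named by rule, and other pathway genes were named freely from the lists. The genes and lists were chosen with earlier results of these data known. Alternatives were other scalings, filters, DESeq2 1.42.0, the block, fewer time points and leaving out each replicate. 3′UTRs came from GENCODE release 44. Some genes of the lists are not reported here by name.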

Additional observations from a re-analysis of the deposited data

How the results depend on the processing

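The slopes of the 10 genes kept their direction and their side of the threshold in all 119 alternative fits (12 alternatives per gene, 11 for SMAD7, whose mean of 38.6 counts is below the stricter filter of 50). The slopes of the bent courses moved most, ID1 from -1.25 to -0.57, SMAD7 from -1.18 to -0.40 and TGIF1 from -1.01 to -0.53, and SMAD6 ran from -0.32 to -0.15 with a highest adjusted p of 0.0361. No called contrast or rate difference changed sign, while some values that were not called did (SMAD6 at 1 h against 0 h from -0.071 to 0.12, SMAD7 at 4 h against 2 h from -0.30 to 0.28). The number of genes lower at 1 h was 0 to 5 when a replicate was left out, at 2 h against 1 h it was 6 to 9, and at 4 h against 2 h it was 5 to 8. Unadjusted p-values below 0.05 at 1 h numbered 1705 over all tested genes, and 1273, 1019 and 1486 without replicates 1, 2 and 3. The 2 genes that departed from a straight line became 4 with no count filter, 1 with a mean of at least 50 counts, and 0 to 2 when a replicate was left out. With the replicate block, which uses the pairing, they became 8. The block changed no call of a slope among the 10 genes. Of the pathway genes 46 fell and 1 rose when scaled to GAPDH plus ACTB, 9 rose with library totals and 6 rose in slopes over 0, 1 and 2 h only. Of all 12032 tested genes 7729 fell and 112 rose when scaled to GAPDH plus ACTB, and 2242 rose with library totals. In slopes over 0, 1 and 2 h only, 1447 of 12060 rose. In contrasts between time points, 14 of 495 alternative values gained a call and 26 lost it. The SMAD6 call at 2 h against 0 h was lost without replicate 3 (adjusted p = 0.108), and the rate difference of ID1 with DESeq2 size factors (0.0509). Low counts limit BAMBI at 4 h and SMAD7 from 2 h on. ID1 is limited too, with 28, 24 and 14 counts at 4 h in replicates 1, 2 and 3. Of the steep list genes, JUNB and RGMA had means of only 24.5 and 26 counts per library.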
